A study of Homo sapiens with 10 samples.

Results

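Transcript levels of the proteasome were followed after knockdown of the kinase STK38 in ST486, a line of human Burkitt's lymphoma. The genes were taken from the array by name: every probe set whose platform annotation gave a single gene with a symbol starting PSMA, PSMB, PSMC, PSMD, PSME, PSMF or PSMG. This rule found 46 of 12558 probe sets, and they stood for 39 of 8226 genes. Of these, 38 encode proteasome subunits, activators, an inhibitor or assembly factors. The other is PSMC3IP, a meiotic recombination factor named after its binding to PSMC3, which is counted by the rule and given apart.

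Cells of the first group carried a lentiviral STK38 shRNA (Sigma TRCN0000010215) and those of the second a lentiviral non-target control shRNA (Sigma SHC002). RNA was taken 60 h after transduction in both, from the same line, and each group held 5 Affymetrix HG-U95Av2 arrays. All cells thus carried a lentivirus and a hairpin, and STK38 was targeted by 1 hairpin, so effects of that sequence on other transcripts cannot be told apart from those of STK38. The labels do not say whether replicates were separate cultures, so p-values measure only array-to-array spread, possibly technical in origin.

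The proteasome is the barrel-shaped protease that degrades ubiquitin-tagged proteins in the cytosol and nucleus. Its core, the 20S particle, stacks rings of alpha subunits (PSMA genes), which gate the entrance, around rings of beta subunits (PSMB genes), which hold the proteolytic sites. The 19S cap binds ubiquitin and unfolds substrates: its base contains the ATPases (PSMC genes) and its lid the subunits around the deubiquitinase PSMD14. Interferon-inducible PSMB8, PSMB9 and PSMB10 can replace the catalytic PSMB5, PSMB6 and PSMB7 to form the immunoproteasome, which lymphoid cells carry at rest and which favours peptides for MHC class I. The PSME proteins are alternative caps. B lineage tumours that secrete much protein are known for their sensitivity to proteasome inhibitors.

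The values are log2 levels, and a level is compared here only with the same probe set on other arrays. A gene with several probe sets is given by the brightest, the one with the highest mean over all arrays. Array medians lay between 2.12 and 2.25, and the background, taken from control probe sets, between 2.36 and 2.66; the number of arrays limits the precision. STK38 was lower on every STK38 shRNA array than on every control array (log2 fold change -2.19 with SE 0.14, limma adjusted p = 5.65e-08). This is its brightest probe set, above background on 4 of 5 STK38 shRNA arrays. The others had log2 fold changes of -1.16 and -0.82, also with groups apart, so the size of the knockdown is uncertain. STK38 shRNA replicate 4 stood apart, with a 75th percentile of 3.53 where the other arrays had 3.91 to 4.01. Values of genes found by the naming rule that it moved by over 1.5 times or across the threshold are also given without it. Changes under 0.1 on the log2 scale are left out. For genes outside the rule no fold change without it is given. Of 7 B cell markers on the array, 5 were above background on every array, MS4A1 and CD79A among them, while PAX5 and CD37 were above it on none. Erythroid markers were above it on no array, and of 6 T cell markers TRBC1 was above it and CD3D, CD3E, CD3G, CD2 and CD8A were not. TRBC1 fell at its brightest probe set (log2 fold change -0.52, limma adjusted p = 0.000676) and not at the other (-0.03, adjusted p = 0.868). That brightest probe set makes up nearly all of the summed level of the 6 T cell markers. The log2 sum was 7.70 to 8.01 with the STK38 shRNA and 8.23 to 8.56 with the control shRNA. The B cell sum was 9.77 to 10 and 9.47 to 9.76, with CD79A called higher. Monocyte markers summed to 4.47 to 4.82 and 4.49 to 4.63, with 0 of 6 above background on all arrays, and epithelial markers to 5.05 to 5.29 and 4.95 to 5.09. Of the epithelial markers, KRT8 was above background on every array, and KRT18 and KRT19 on 1 STK38 shRNA array each. The part of these shifts in the results on proteasome genes was not tested.

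Proteasome genes did not move as a block: 4 of 7 constitutive beta ring genes were called higher with the STK38 shRNA, while PSMB7 was not. Some cap subunits and the activator PSME4 were called lower. Most cap subunits were not called, PSMC2 was called higher, and the lid and the base ATPases each had a median log2 fold change of 0.06. Of the 39 genes, 38 had a probe set bright enough to be tested (PSMC3IP included, PSMA7 not), and 42 of the 46 probe sets were above background on all 10 arrays. In limma, fitted across all 7535 probe sets tested, 8 of the 38 genes rose and 7 fell at an adjusted p under 0.05. That is 39.5% of them, beside a percent called of 31.0 over all genes (15.2 higher and 15.8 lower). By probe set the counts were 9 higher and 9 lower of 45, or 40%, beside 29.9 over all probe sets. The median log2 fold change of the 38 genes was 0.059 and that of all genes 0.019, while the median absolute change was 0.24 beside 0.19.

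At 14 of the 45 probe sets, or 31.1%, the groups did not overlap, beside 22.1 of all probe sets. STK38 shRNA arrays lay above all control arrays at 6 of them and below at 8, beside 9.33 and 12.8 percent of all probe sets. Without STK38 shRNA replicate 4 the counts were 9 genes higher and 7 lower. The plot of changes by role shows the calls on both sides of 0, with the largest fold, 2.56, at PSME4. In a culture measured as a whole, a lower level per cell and fewer cells with a high level cannot be told apart.

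**Figure D1:**
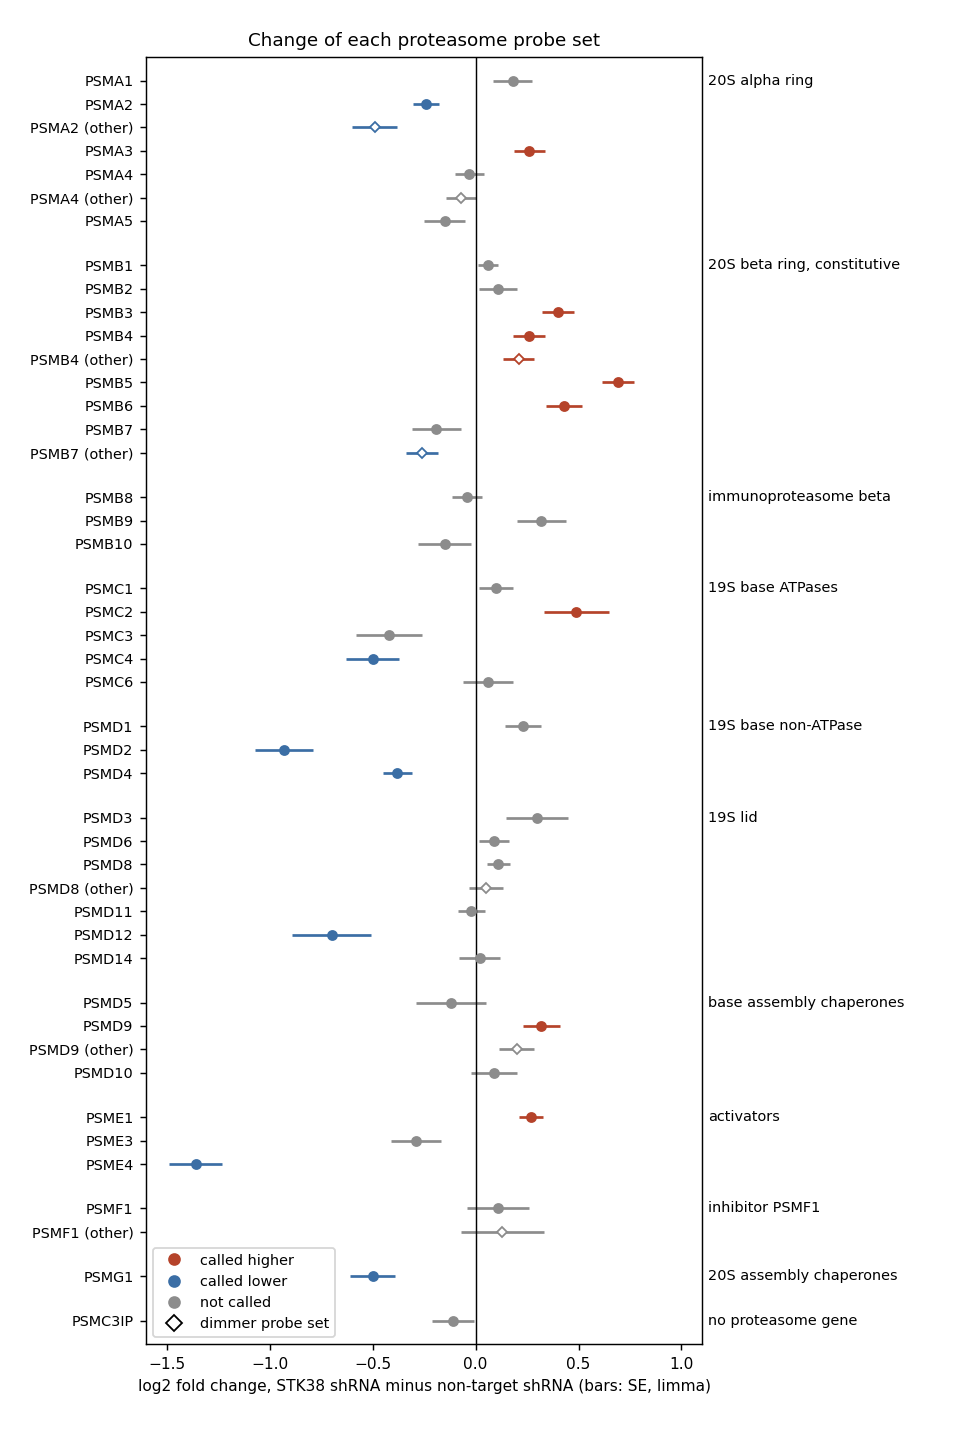
Log2 fold change (STK38 shRNA minus non-target shRNA, x axis) of each of the 45 tested probe sets, grouped by role from the alpha ring at the top; bars are limma standard errors, filled circles the brightest probe set of a gene and open diamonds the others. PSMB5, at 0.69, lies farthest to the right, and PSME4, at -1.36, farthest to the left.

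The constitutive beta ring held 4 of the 8 rises. By the brightest probe sets of its 7 genes, 4 rose, 0 fell and 3 were not called, beside 15.2% of all genes called higher and 15.8% lower. The median log2 fold change was 0.26, and the dimmer probe set of PSMB7 was called lower. PSMB5, which carries the chymotrypsin-like site and is the main target of the drug bortezomib, had log2 levels of 7.97, 8.07, 8.02, 8.06 and 8.08 on the STK38 shRNA arrays, against 7.54, 7.20, 7.29, 7.40 and 7.33 on the control arrays. Every STK38 shRNA array was above every control array, and the values with the STK38 shRNA lay within a narrow band. PSMB5 averaged 8.04 ± 0.05 with the STK38 shRNA and 7.35 ± 0.13 with the control shRNA (SD, n = 5 each), a 1.61-fold rise (log2 difference 0.69, SE 0.078; limma, adjusted p = 1.14e-05). The two-sided exact permutation test over arrays gave p = 0.00794, the smallest it can give with 5 arrays a group.

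PSMB6, the subunit with the caspase-like site, had log2 levels of 7.41, 7.51, 7.67, 7.54 and 7.61 with the STK38 shRNA, against 7.24, 7.08, 7.03, 7.28 and 6.94 with the control shRNA. The groups were again apart, and the rise was 1.35-fold (log2 difference 0.43, SE 0.089; limma, adjusted p = 0.00183). PSMB3, a structural subunit with no active site, had log2 levels of 9.08, 9.09, 9.30, 8.95 and 9.06 in STK38 shRNA cells, against 8.64, 8.59, 8.66, 8.65 and 8.90 in control cells. Its lowest STK38 shRNA array stood just above the highest control array, and it rose 1.32-fold (log2 difference 0.40, SE 0.078; limma, adjusted p = 0.00107). PSMB4, another structural subunit, had overlapping groups. The brighter of its probe sets rose by 0.26 on the log2 scale (limma adjusted p = 0.0213) and the dimmer by 0.21 (adjusted p = 0.0447), a call lost in 8 of 10 fits with an array left out. The call of the brighter was lost without STK38 shRNA replicate 1, control replicate 1 or control replicate 2, with adjusted p of 0.0555, 0.0546 and 0.0569.

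PSMB7, the subunit with the trypsin-like site, did not follow PSMB5 and PSMB6. Its brighter probe set had log2 levels of 8.12, 8.20, 8.11, 7.95 and 8.05 with the STK38 shRNA, against 7.92, 8.39, 8.51, 8.60 and 7.96 with the control shRNA. Control replicates 1 and 5 lay at or just below the level of the STK38 shRNA arrays and the other control arrays above it, so the groups overlapped (log2 fold change -0.19 with SE 0.12, limma adjusted p = 0.295). The dimmer probe set had log2 levels of 7.71, 7.81, 7.52, 7.79 and 7.79, against 7.97, 8.07, 7.92, 7.92 and 8.05 on control arrays. Here the STK38 shRNA arrays were all lower, by 0.26 on the log2 scale (SE 0.077, limma adjusted p = 0.0182), and the call was lost with quantile normalization across arrays (adjusted p = 0.0741). PSMB1 and PSMB2 had log2 fold changes of 0.06 and 0.11 and were not called.

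**Figure D2:**
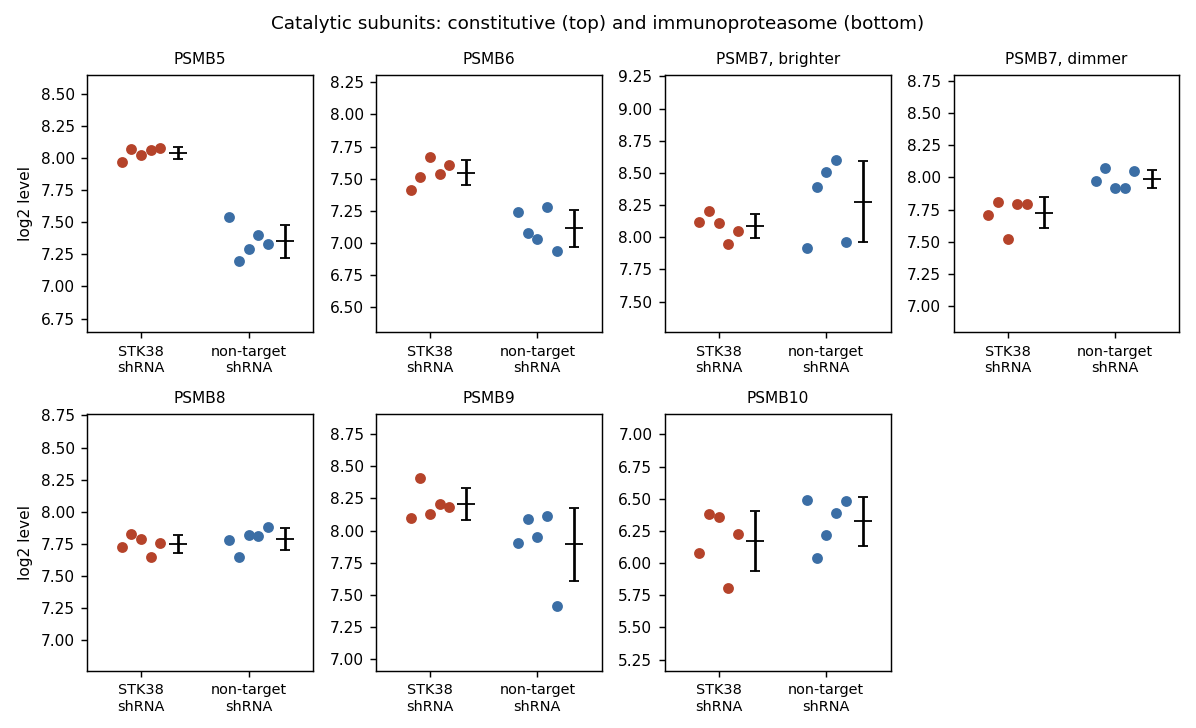
Log2 level (y axis, each panel spanning at least 2 log2 units around its own values) of the constitutive catalytic subunits in the top row and of the immunoproteasome subunits in the bottom row; points are arrays, and the bar beside them is the mean with its SD. PSMB5 and PSMB6 are higher on all 5 STK38 shRNA arrays, PSMB7 is not, and the groups overlap at PSMB8, PSMB9 and PSMB10.

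The immunoproteasome genes were well above background on every array, and none of the 3 was called. PSMB8, the counterpart of PSMB5, had log2 levels of 7.73, 7.83, 7.79, 7.65 and 7.76 with the STK38 shRNA, against 7.78, 7.65, 7.82, 7.81 and 7.88 with the control shRNA. The groups covered the same range (log2 fold change -0.04 with SE 0.073, limma adjusted p = 0.770). PSMB10, the counterpart of PSMB7, had 6.08, 6.38, 6.36, 5.81 and 6.23, against 6.49, 6.04, 6.22, 6.39 and 6.48 in control cells, and overlapped as well (log2 fold change -0.15 with SE 0.13, limma adjusted p = 0.446). Without STK38 shRNA replicate 4 the PSMB10 value was -0.06.

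PSMB9, the counterpart of PSMB6, had log2 levels of 8.10, 8.41, 8.13, 8.21 and 8.18 with the STK38 shRNA, against 7.90, 8.09, 7.95, 8.11 and 7.41 with the control shRNA. Control replicate 5 was far the lowest, and control replicate 4 lay just above the lowest STK38 shRNA array. The log2 fold change was 0.32 (SE 0.12, limma adjusted p = 0.0579), and 0.20 without control replicate 5 (adjusted p = 0.0967). It passed the threshold with quantile normalization (adjusted p = 0.0228), and without control replicate 2 (adjusted p = 0.0415) or 4 (adjusted p = 0.0422). The same held with the filter at the 60th percentile (limma adjusted p = 0.0408) and with the replicate block (0.0355). PSMB5 and PSMB8 thus had log2 fold changes of 0.69 and -0.04, PSMB6 and PSMB9 of 0.43 and 0.32, and PSMB7 and PSMB10 of -0.19 and -0.15 (-0.16 and -0.06 without STK38 shRNA replicate 4); the difference within a pair was not tested.

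In the alpha ring 1 of 5 tested genes rose and 1 fell, beside 15.2% and 15.8% of all genes, with a median of -0.03. PSMA2 had log2 levels of 9.04, 9.0, 8.80, 8.87 and 8.99 with the STK38 shRNA, against 9.16, 9.10, 9.28, 9.23 and 9.14 with the control shRNA. The groups were apart by a small margin and the fall was 1.18-fold (log2 difference -0.24, SE 0.064; limma, adjusted p = 0.00986). Its dimmer probe set also fell (log2 fold change -0.49, limma adjusted p = 0.00414), at a probe set where 1 STK38 shRNA array and all 5 control arrays exceeded background. PSMA3 rose by 0.26 (SE 0.075, limma adjusted p = 0.0172), with 8.86, 8.88, 8.87, 8.64 and 8.87 with the STK38 shRNA, against 8.55, 8.39, 8.53, 8.68 and 8.69 in control cells. The STK38 shRNA replicate 4 alone fell among the control values, and without it the rise was 0.30 on the log2 scale.

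The other alpha subunits were not called, with log2 fold changes of 0.18 for PSMA1, -0.03 for PSMA4 and -0.15 for PSMA5. PSMA7 was not above background on any array, at 1.71 to 1.97 with the STK38 shRNA and 1.69 to 1.96 with the control shRNA, and was left out of the test. The probe set for PSMA6 names another gene as well and is outside the count. Its log2 fold change was -0.12 (limma adjusted p = 0.0677), with the groups apart.

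Cap subunits that fell were scattered over the base and the lid. In the base, PSMD2, the scaffold on which ubiquitin shuttle proteins dock, had log2 levels of 7.19, 7.02, 7.20, 6.36 and 6.93 with the STK38 shRNA, against 7.84, 7.73, 7.91, 8.07 and 7.81 with the control shRNA. All STK38 shRNA arrays were lower, replicate 4 the most. PSMD2 averaged 6.94 ± 0.34 with the STK38 shRNA and 7.87 ± 0.13 with the control shRNA (SD, n = 5 each), a 1.91-fold fall (log2 difference -0.93, SE 0.14; limma, adjusted p = 0.000125), and -0.79 without replicate 4. PSMD4, a ubiquitin receptor, had 8.11, 8.27, 8.16, 8.01 and 8.08, against 8.48, 8.45, 8.53, 8.45 and 8.64 in control cells. It fell 1.31-fold (log2 difference -0.38, SE 0.071; limma, adjusted p = 0.000767) with no overlap. PSMD1, the other large scaffold of the base, had a log2 fold change of 0.23 and an adjusted p of 0.0618, and was called higher without STK38 shRNA replicate 2 (adjusted p = 0.0408) or control replicate 5 (adjusted p = 0.0251). It was also called with quantile normalization (limma adjusted p = 0.0304), the filter at the 60th percentile (0.0414) and array weights (0.0111). With median centring, no filter, eBayes without trend or the replicate block it was not. The 3 non-ATPase subunits had 2 falls, beside 15.8% of all genes called lower, and a median of -0.38.

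The base ATPases went both ways, with 1 rise, 1 fall and 3 genes not called among 5, beside 15.2% and 15.8% of all genes called. PSMC4 fell 1.42-fold (log2 difference -0.50, SE 0.13; limma, adjusted p = 0.0104), at 4.43 to 4.86 with the STK38 shRNA and 4.81 to 5.47 with the control shRNA, where control replicate 5 alone reached into the STK38 shRNA range. PSMC2 had log2 levels of 8.36, 8.44, 8.28, 8.09 and 8.25, against 7.41, 8.09, 8.11, 8.10 and 7.28 on control arrays. Control replicates 1 and 5, which were also the low ones at the brighter PSMB7 probe set, lay far below the other control arrays. PSMC2 was called higher (log2 fold change 0.49 with SE 0.16, limma adjusted p = 0.0273), and the call was lost without any of 5 single arrays. These were STK38 shRNA replicates 1, 2 and 3 and control replicates 1 and 5, with adjusted p of 0.0603, 0.0676, 0.0511, 0.0797 and 0.0642.

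PSMC3 had a log2 fold change of -0.42 (limma adjusted p = 0.0695), which was -0.29 without STK38 shRNA replicate 4 (adjusted p = 0.103). PSMC3 was called lower without STK38 shRNA replicate 1 (-0.51, adjusted p = 0.0352) and without control replicate 2 (-0.52, adjusted p = 0.0295). PSMC1 and PSMC6 had 0.10 and 0.06. In the lid, PSMD12, a scaffold subunit, had log2 levels of 4.55, 4.94, 4.63, 3.78 and 4.95 with the STK38 shRNA, against 5.09, 5.18, 5.46, 5.46 and 5.17 with the control shRNA. The groups were apart and replicate 4 was the lowest array. PSMD12 fell 1.63-fold (log2 difference -0.70, SE 0.19; limma, adjusted p = 0.0123), and -0.50 remained on the log2 scale without that array (adjusted p = 0.00391).

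The 5 other lid genes tested were not called. Their log2 fold changes ran from -0.02 for PSMD11 to 0.30 for PSMD3, which had an adjusted p of 0.157. PSMD3 was called with STK38 shRNA replicate 4 left out (0.39, limma adjusted p = 0.0240) and with array weights (0.35, adjusted p = 0.0205). PSMD14, the deubiquitinase of the lid, had 0.02 (SE 0.099, limma adjusted p = 0.919). The lid median was 0.06. Between them, base and lid had 4 falls and 1 rise among 14 tested genes, a share near the 31.0% of all genes called.

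Alternative caps moved in opposite directions. PSME4, which encodes PA200, a large nuclear activator that caps the core without ATP, had log2 levels of 3.14, 3.19, 3.07, 3.01 and 2.97 with the STK38 shRNA, against 4.07, 4.73, 4.38, 4.46 and 4.53 with the control shRNA. The groups lay far apart, and all values were above background, though not by much with the STK38 shRNA. PSME4 averaged 3.08 ± 0.09 with the STK38 shRNA and 4.43 ± 0.24 with the control shRNA (SD, n = 5 each), a 2.56-fold fall and the largest change among the 38 genes (log2 fold change -1.36 with SE 0.13, limma adjusted p = 2.56e-06).

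PSME1, the alpha subunit of the interferon-inducible PA28 ring, had log2 levels of 9.32, 9.25, 9.34, 9.36 and 9.30 with the STK38 shRNA, against 9.18, 9.07, 8.92, 9.02 and 9.0 with the control shRNA. It was higher on every STK38 shRNA array and rose 1.21-fold (log2 difference 0.27, SE 0.059; limma, adjusted p = 0.00256). Its partner PSME2 shares both its probe sets with the name of a microRNA gene and is outside the count. These had log2 fold changes of 0.27 (limma adjusted p = 0.0331) and 0.20 (adjusted p = 0.0315), with overlapping groups. PSME3, the nuclear PA28 homologue, stood near background, at 2.43, 2.49, 2.66, 2.09 and 2.44, against 2.69, 2.56, 2.86, 2.95 and 2.48 on control arrays. It was above background on 3 STK38 shRNA and 4 control arrays and was not called (log2 fold change -0.29, limma adjusted p = 0.0982). With array weights PSME3 was called lower (limma adjusted p = 0.0265). PSMF1, an inhibitor of the core in vitro, had 3.52, 4.02, 3.72, 3.35 and 3.83 at its brighter probe set, against 3.37, 3.67, 3.44, 3.52 and 3.89, with full overlap (log2 fold change 0.11, limma adjusted p = 0.661; 0.13 at the other probe set). Without STK38 shRNA replicate 4 the brighter had 0.19 (adjusted p = 0.276).

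**Figure D3:**
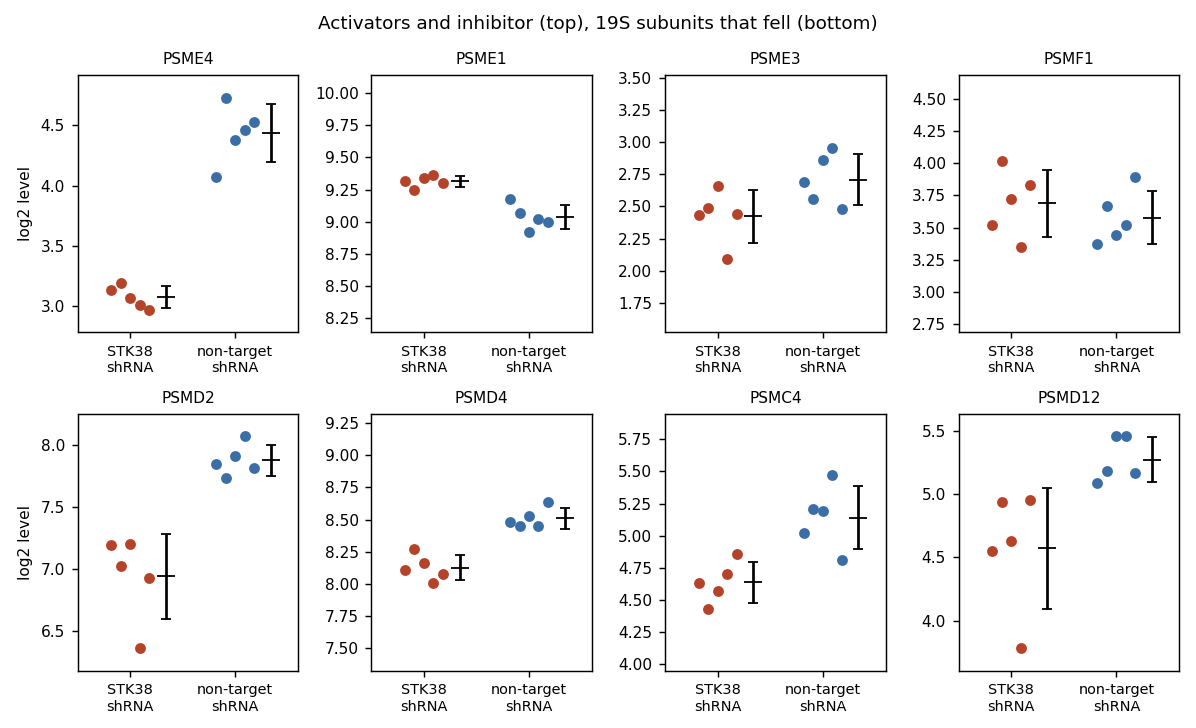
Log2 level (y axis, each panel spanning at least 2 log2 units around its own values) of the activators and the inhibitor PSMF1 in the top row and of cap subunits called lower in the bottom row; points are arrays and bars the mean with its SD. PSME4 shows the widest gap between the groups, PSME1 a small gap the other way, and STK38 shRNA replicate 4 is the lowest point at PSMD2 and PSMD12.

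Assembly factors also split. PSMG1, which helps build the alpha ring, had log2 levels of 6.20, 6.22, 6.14, 5.70 and 6.11 with the STK38 shRNA, against 6.67, 6.40, 6.48, 6.65 and 6.67 with the control shRNA. The groups were apart, and it fell 1.41-fold (log2 difference -0.50, SE 0.11; limma, adjusted p = 0.00379), or by 0.41 on the log2 scale without STK38 shRNA replicate 4. PSMD9, a chaperone of the base ATPases, had 7.26, 7.72, 7.45, 7.39 and 7.49, against 7.08, 7.12, 7.26, 7.13 and 7.14 in control cells. Its lowest STK38 shRNA array met the highest control array to the printed digits, with no overlap. PSMD9 rose 1.25-fold (log2 difference 0.32, SE 0.091; limma, adjusted p = 0.0148), and its dimmer probe set, with groups apart as well, had 0.20 (adjusted p = 0.0895). The dimmer was called with quantile normalization (limma adjusted p = 0.0239) and with array weights (0.0296). The base chaperones PSMD5 and PSMD10 had -0.12 and 0.09 and were not called, and PSMD5 had 0.01 without STK38 shRNA replicate 4. PSMC3IP, which is no proteasome gene, had -0.11 (limma adjusted p = 0.495), above background on 3 arrays of both groups.

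**Figure D4:**
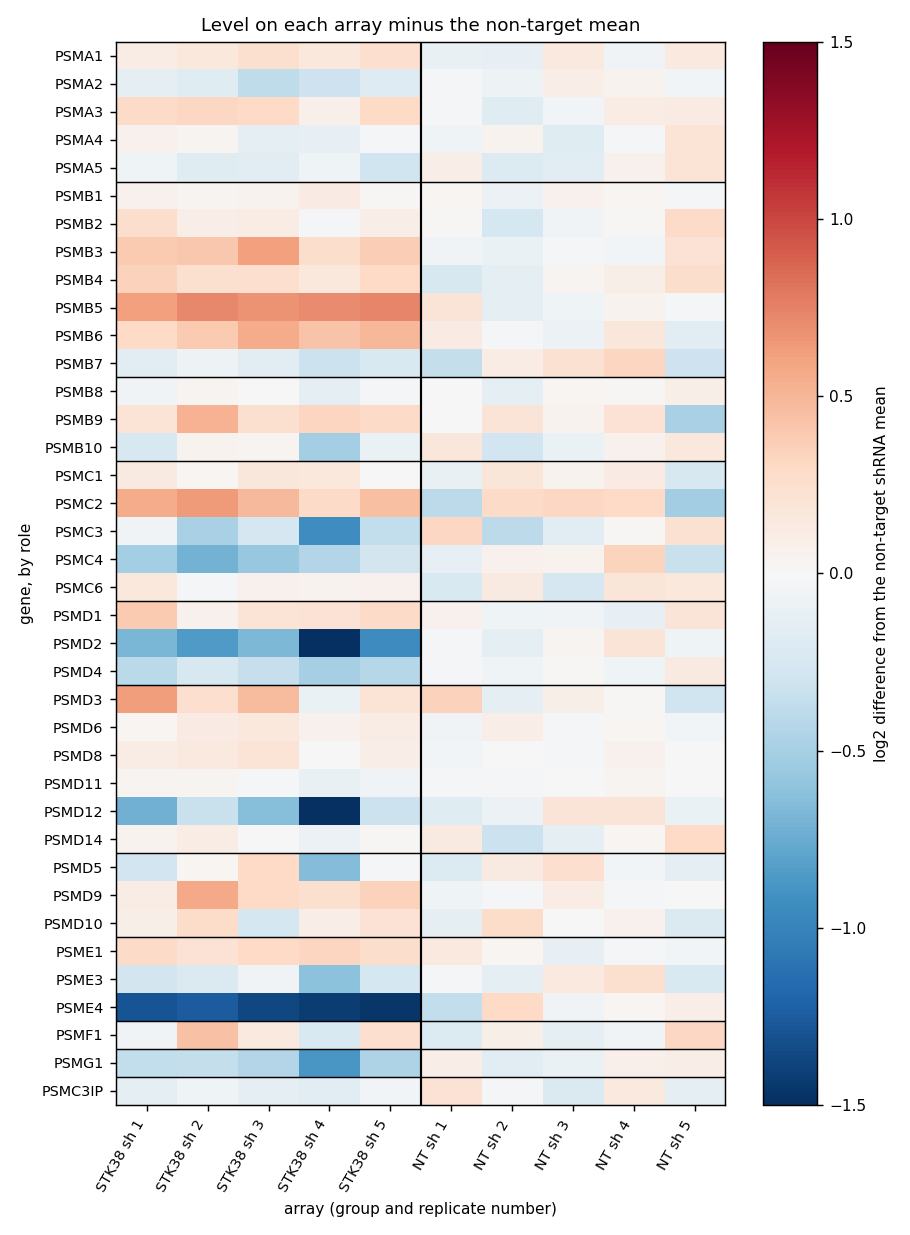
Level of each of the 38 tested genes (rows, by role, lines between roles) on each array (columns, STK38 shRNA left of control) minus the control mean, as log2 difference on a colour scale from -1.5 to 1.5. PSMB5 is the strongest red row on the STK38 shRNA arrays and PSME4 the strongest blue one, and STK38 shRNA replicate 4 is the darkest cell at PSMD2, PSMD12, PSMC3 and PSMG1.

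The median of the 7 constitutive beta ring genes, taken on each array against the control mean, was higher on every STK38 shRNA array, while groups overlapped at PSMB1, PSMB2, PSMB4 and the brighter PSMB7 probe set. It was 0.29, 0.24, 0.26, 0.16 and 0.29 on the STK38 shRNA arrays, against 0.02, -0.10, -0.03, 0.04 and -0.02 on the control arrays. The same summary for the immunoproteasome was -0.06, 0.06, 0.04, -0.14 and -0.03, against 0.01, -0.14, 0.03, 0.07 and 0.09, so those groups overlapped. For the non-ATPase base subunits it was -0.40, -0.24, -0.35, -0.51 and -0.43, against -0.03, -0.07, 0.02, -0.06 and 0.13. On the STK38 shRNA arrays this median is the value of PSMD4 alone, which lay between PSMD2 and PSMD1. PSMD1 had a log2 fold change of 0.23, the other way, with overlapping groups. STK38 shRNA replicate 4 had the lowest value of the 10 arrays at 11 of the 38 genes, PSMD2, PSMD12, PSMC3 and PSMG1 among them, and the array next in this count, control replicate 2, at 7.

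Promoter sequences are shown for the genes at the ends of this pattern: PSMB5, the largest rise, PSMB3, a rise whose window held the most kinds of motif searched among those printed, PSMB9 as an immunoproteasome gene, and PSME4, the largest fall. Each is the stretch of 250 bases before the listed start farthest upstream, from RefSeq on GRCh38.p14, written 5′ to 3′ on the gene's strand with motif letters in capitals.
PSMB5 (chr14:23035221-23035470, minus strand): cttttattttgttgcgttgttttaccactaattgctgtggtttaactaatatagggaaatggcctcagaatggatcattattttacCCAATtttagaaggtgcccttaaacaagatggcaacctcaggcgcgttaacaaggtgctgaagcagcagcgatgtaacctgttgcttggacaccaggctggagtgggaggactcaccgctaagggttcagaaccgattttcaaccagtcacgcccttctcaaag
PSMB3 (chr17:38752491-38752740, plus strand): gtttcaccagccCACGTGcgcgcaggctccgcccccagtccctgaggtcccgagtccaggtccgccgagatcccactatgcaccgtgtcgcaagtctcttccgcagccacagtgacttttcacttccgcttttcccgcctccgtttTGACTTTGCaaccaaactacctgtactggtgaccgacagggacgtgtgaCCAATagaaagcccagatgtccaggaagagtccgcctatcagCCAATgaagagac
PSMB9 (chr6:32853942-32854191, plus strand): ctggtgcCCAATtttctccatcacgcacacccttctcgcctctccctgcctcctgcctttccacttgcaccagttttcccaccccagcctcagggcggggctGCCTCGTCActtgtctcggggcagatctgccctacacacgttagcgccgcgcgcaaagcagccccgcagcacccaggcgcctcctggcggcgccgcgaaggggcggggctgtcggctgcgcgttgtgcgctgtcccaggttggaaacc
PSME4 (chr2:53970994-53971243, minus strand): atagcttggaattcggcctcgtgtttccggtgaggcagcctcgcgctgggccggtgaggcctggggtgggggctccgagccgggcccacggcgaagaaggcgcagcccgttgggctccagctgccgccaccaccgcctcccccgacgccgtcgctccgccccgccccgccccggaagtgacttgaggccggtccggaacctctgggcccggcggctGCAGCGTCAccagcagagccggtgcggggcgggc

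Of the 38 proteasome genes, 33 had such a window, 5 of them with several listed starts. Motifs were searched as letters on both strands. The antioxidant response element core TGACNNNGC, bound by NFE2L1 and NFE2L2, which drive proteasome genes when proteasome activity falls short, was in 9 windows (27.3%) beside 11.1% of 27305 promoters. It began 104 bases before the start in PSMB3, and its reverse complement 148 bases before it in PSMB9 and 34 in PSME4. CCAAT, the NF-Y box, was in 15 windows (45.5%) beside 33% of all. The E-box CACGTG, bound by MYC with MAX, was in 3 (PSMB3, PSMD9 and PSME3, or 9.09%) beside 6.46%. The interferon-stimulated response element core (GAAA, any 2 bases, GAAA) was in 3 (9.09%) beside 3.07%, PSMB10 among them. Genes with the antioxidant core went both ways: PSMB3, PSMD9 and PSME1 rose, PSME4, PSMD12 and PSMG1 fell, and PSMB9, PSMD3 and PSMD5 were not called.

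Other genes of the pathway were read from hand-made lists, whose counts stand beside 15.2% of all genes called higher and 15.8% called lower. Among further proteasome-bound proteins 2 of 9 tested genes rose and 0 fell, which is near the share of all genes called higher. SEM1, a small lid subunit outside the naming rule, rose 1.37-fold (log2 difference 0.45, SE 0.086; limma, adjusted p = 0.000999), and UBE3C, a ubiquitin ligase that works on the proteasome, 1.23-fold (adjusted p = 0.0392). The ubiquitin receptor ADRM1 had -0.08, and USP14, a deubiquitinase of the cap, -0.66 with overlapping groups (adjusted p = 0.0907). The size for USP14 leans on STK38 shRNA replicate 4, at 2.87. The other STK38 shRNA arrays had 3.97 to 4.62 and the control arrays 4.21 to 5.16. In ubiquitin supply and substrate delivery 3 of 9 rose and 0 fell: the ubiquitin chain ligases UBE4B (1.48-fold, adjusted p = 0.00646) and UBE4A (1.29-fold, adjusted p = 0.0441) and UFD1, a partner of the unfoldase VCP (1.29-fold, adjusted p = 0.00609). The dimmer UBE4B probe set had 0.27 and was not called (limma adjusted p = 0.0994), and groups overlapped there and at UBE4A. VCP itself had 0.23 and was not called.

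In the list of regulators of proteasome genes, which also holds the NFE2L2 targets NQO1 and HMOX1, 3 of 10 rose and 0 fell, beside 15.2% and 15.8% of all genes. NFE2L1 had a log2 fold change of 0.00 (SE 0.16, limma adjusted p = 0.992) and NFE2L2 of 0.06 (SE 0.11, adjusted p = 0.730). The NFE2L2 inhibitor KEAP1 rose by 0.38 (adjusted p = 0.0239) and NQO1, an NFE2L2 target, by 0.37 (adjusted p = 0.0119), where 4 arrays with the STK38 shRNA and 1 with the control shRNA exceeded background. STAT3 rose by 1.05 at its brightest probe set (SE 0.12, limma adjusted p = 1.23e-05), above background on all 5 STK38 shRNA arrays and on 2 control arrays, so the size is uncertain.

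Downstream of the immunoproteasome, 5 of 9 class I antigen processing genes rose and 0 fell, beside 15.2% and 15.8% of all genes. The rises ran from 0.26 (B2M) to 1.15 (HLA-E) on the log2 scale. TAPBP, which holds class I molecules for peptide loading, HLA-G and HLA-F rose by 0.62, 0.48 and 0.46, and probe sets of HLA genes can bind transcripts of close relatives. The peptide transporter genes TAP1 and TAP2, neighbours of PSMB8 and PSMB9 on chromosome 6, were not called, at 0.05 (SE 0.12, limma adjusted p = 0.811) and -0.06 (adjusted p = 0.774). In interferon signalling 2 of 10 rose and 2 fell, shares near those of all genes. IRF9 rose by 0.87 and IFNGR1 by 0.72, and IFNAR2 fell by 0.55 and JAK1 by 0.40. Groups were apart at IRF9 and overlapped at IFNGR1, IFNAR2 and JAK1. IRF1, an activator of immunoproteasome genes, had -0.03 (SE 0.16, limma adjusted p = 0.930). The IRF1 level was 3.11 on STK38 shRNA replicate 4 and 3.78 to 3.99 on the other STK38 shRNA arrays, against 3.55 to 3.92 on control arrays. Of 6 cytosolic peptidases that trim proteasome products 2 rose and 0 fell. These were NPEPPS, by 1.03 (limma adjusted p = 0.00149), and NRDC, by 0.41 (adjusted p = 0.00160). Groups overlapped at NPEPPS, where STK38 shRNA replicate 4 had 3.69 and the control arrays 3.38 to 3.86. The other STK38 shRNA arrays had 4.77 to 4.93.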

How the data were processed

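Total RNA of ST486 cells (5 ug) was hybridised, per the labels, to HG-U95Av2 arrays. The deposited log2 values, 1 per probe set and array, were made by the authors with GCRMA and affy, per the submitters' processing notes (no version given); that they are log2 was inferred from their range. GCRMA models background by probe sequence, equalises arrays and draws dim probe sets towards a floor, which shrinks their differences. Of 12625 probe sets, 67 controls were removed. Names came from the platform annotation, updated through Entrez identifiers to RefSeq (GRCh38.p14).

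Probe sets with a mean under the 40th percentile (1.93) were left out. The other 7535 were compared in R 4.3.3 with limma 3.58.1 (lmFit, eBayes with trend, no covariate), with Benjamini-Hochberg adjustment over all of them. Background was the 90th percentile of 23 mouse, yeast and reverse-strand control probe sets, a choice made after values were seen. Per-array values were given for called genes with groups apart, catalytic subunits, activators and PSMF1, and, chosen after values were seen, for PSMA3 and PSMC2; of other lists up to 4 called genes, with USP14, ADRM1, VCP, TAP2, B2M and the cell type markers chosen after values were seen, were named. A gene and a motif that the rules name are not reported here. The genes and lists were chosen with earlier results of these data known. The fit was tested on simulated data. Alternatives changed the scaling, filter, variance model, array weights, threshold and probe set rule, added a replicate block or left out single arrays. Plots used matplotlib 3.10.9.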

Additional observations from a re-analysis of the deposited data

Results flagged for a closer look

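Among 90 sets of 5 arrays (45 probe sets in both groups), 3 had an array far from the other 4 by Dixon's test, where chance gives about 1 in 20. PSMA3 on STK38 shRNA replicate 4 was at 8.64, below 8.86 to 8.88 on the other STK38 shRNA arrays. PSMG1 on the same array was at 5.70, below 6.11 to 6.22. PSMB3 on control replicate 5 was at 8.90, above 8.59 to 8.66 on the other control arrays.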

How the results depend on the processing

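Of the 18 member probe sets called, 15 were called whichever single array was left out, and 14 of these also under the 7 other settings of scaling, filter, variance model, array weights and replicate block; the exceptions were both PSMB4 probe sets, PSMC2 and the dimmer PSMB7 probe set. With single arrays left out, 6 to 9 genes rose and 7 to 8 fell (6 to 10 and 9 to 10 probe sets). Of the listed pathway genes, 17 rose and 2 fell in the main fit, and 13 to 19 rose and 1 to 3 fell with single arrays left out. At an adjusted p under 0.01, 4 genes rose and 5 fell (4 and 6 probe sets), and 12 listed pathway genes rose and 0 fell. With the filter at the 60th percentile 4 listed pathway genes fell, where fewer probe sets were tested. The share of all genes called is given only for the main fit, so counts under other settings cannot be set beside it. The beta ring median ran from 0.15 to 0.32 with arrays left out. The alpha ring median changed sign in 2 of 9 other settings and that of the immunoproteasome in 1. Same-numbered arrays did not deviate together (correlations -0.21 to 0.19), so the numbers were not taken as pairs; with the replicate block 9 genes rose and 8 fell; PSMB9 (adjusted p = 0.0355) and PSMC3 (adjusted p = 0.0414) were then called. With the probe sets of PSME2 and PSMA6, chosen after seeing the data, 9 genes rose and 7 fell. With the background taken without ACTB and GAPDH probe sets, also chosen after seeing the data, PSME3 was above it on 4 STK38 shRNA and 5 control arrays, and PSMA2's dimmer probe set on all 10. Levels near background limit PSMA7, PSME3 and PSMC3IP.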
